A study of Mus musculus with 6 samples.

Results

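The bile acid handling genes of the villus epithelium were followed here as a group of 7 genes chosen by symbol: *Slc10a2*, *Fabp6*, *Nr1h4*, *Nr0b2*, *Slc51a*, *Slc51b* and *Fgf15*. Of these, 6 have a row among the 20409 features of the count table, with *Slc51a* and *Slc51b* under their older names *Osta* and *Ostb*, and *Fgf15* was not analysed here. The libraries were made from duodenal villi of 3 double mutant and 3 wild-type mice, 1 library per mouse, after enrichment of polyadenylated RNA. The double mutant mice carry Smad4 fl/fl (floxed on both alleles), Ctnnb exon3 fl/wt (1 β-catenin allele with exon 3 floxed) and Villin-CreERT2, which acts in all epithelial cells of the gut, on a background enriched for C57BL6. They received tamoxifen at 0.05 g/kg on 4 days and were collected 7 days after induction, whereas the wild-type mice were littermates of matched age that were not injected. The genotype and the tamoxifen therefore cannot be told apart. Each group holds 1 male (replicate 1) and 2 females, and no age is given in the sources used here.

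Bile acids are made in the liver, reach the duodenum with bile and are taken back up mainly in the ileum. There, SLC10A2 carries them across the apical membrane, FABP6 binds them in the cytosol, and the heterodimer of SLC51A and SLC51B exports them towards the portal blood. Bile acids also activate the nuclear receptor FXR, encoded by *Nr1h4*, whose classical intestinal targets are *Nr0b2* (the corepressor SHP), *Fabp6*, *Slc51a*, *Slc51b* and the hormone gene *Fgf15*. The duodenum is known for low levels of the uptake step, and GATA4 is known to keep *Slc10a2* and *Fabp6* low in the proximal intestine.

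Library totals ran from 19678507 to 26337318 counts, and 3 counts, taken as the smallest level this depth can show, correspond to 0.114 to 0.152 CPM, the count of a gene with every library brought to the same fixed total. This floor covers counting error only. CPM values below are scaled by TMM, a factor per library that sets the bulk of the genes level. *Smad4*, the deleted gene, had 120 to 180 CPM in the wild-type mice and 26.0 to 36.8 CPM in the double mutant mice, which matches the labels. *Ctnnb1* had 931 ± 53.5 CPM and 840 ± 79.6 CPM (SD, n = 3; edgeR adjusted p = 0.359), but it is counted over the whole gene, so its level does not report on the loss of exon 3. Beside the duodenal label, 8 markers of the proximal small intestine summed to 4503 to 5130 CPM in the wild-type and 3281 to 4366 CPM in the double mutant mice. The 4 distal markers summed to 161 to 341 CPM and 71.5 to 103 CPM. Without a library of another gut region, these sums cannot test the label. Wild-type mouse 1 stood apart from the other libraries, with 125 CPM on 7 goblet markers against 11015 and 11590 CPM in the other wild-type mice and 4654 to 5052 CPM in the double mutant mice. Its 5 Paneth markers summed to 6.33 CPM, against 538 and 966 CPM in the other wild-type mice. Results of the bile acid handling genes, and the counts of the lists whose calls move, are therefore also given without this mouse.

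Per kilobase of exon, the bile acid handling genes spanned about 3 orders of magnitude in the wild-type villi. The exporter genes were the most abundant, with 163 ± 25.3 CPM per kb for *Slc51a* and 152 ± 29.8 CPM per kb for *Slc51b* (SD, n = 3), and these neighbours differed by less than their spread. *Nr0b2* (14.1 ± 3.74 CPM per kb) and *Nr1h4* (11.9 ± 0.803 CPM per kb) followed, again without separating. *Slc10a2* had 0.759 ± 0.167 CPM per kb and *Fabp6* 0.0931 ± 0.0875 CPM per kb. In the double mutant villi the order at the top was the same, with 122 ± 8.18 CPM per kb for *Slc51a* and 87.1 ± 30.2 CPM per kb for *Slc51b*. *Nr1h4*, however, stood above *Nr0b2* in all 3 double mutant mice, with 18.1 ± 1.14 against 8.82 ± 2.15 CPM per kb. *Slc51a* was above *Slc51b* in all 6 libraries. The export and receptor genes were thus well above the floor in this duodenal tissue, while the uptake gene had at most 33 counts and the gene of cytosolic binding at most 3 counts in a library.

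**Figure D1:**
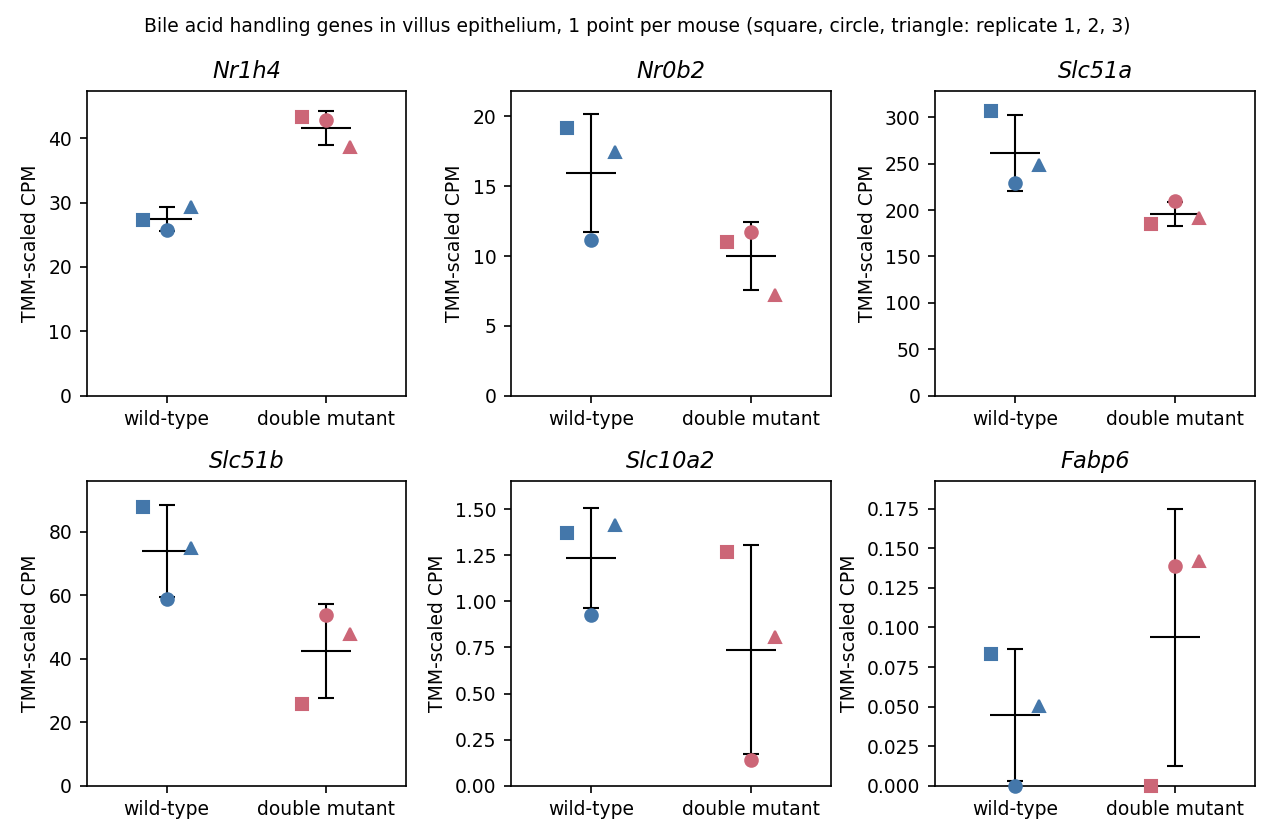
TMM-scaled CPM (vertical axes, linear, each from 0) of the 6 measured bile acid handling genes in wild-type and double mutant villi, with 1 point per mouse and the mean ± SD (n = 3) as bars. *Nr1h4* lies higher in every double mutant mouse and *Slc51a* and *Slc51b* lower, while the groups overlap for *Nr0b2*, *Slc10a2* and *Fabp6*.

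Double mutant and wild-type villi were compared with edgeR's quasi-likelihood test over 13346 genes, with Benjamini-Hochberg adjustment over all of them and a threshold of 0.05. Of the 5 bile acid handling genes that passed the filter on low counts, *Nr1h4* was higher and *Slc51a* lower, and 3 did not pass the threshold. Over all tested genes, 36.8% passed in either direction, 19.7% higher and 17.0% lower, so that 2 of 5 is close to the share among all genes. Without wild-type mouse 1, only *Nr1h4* passed, 1 of 5. The log2 fold changes of the genes that did not pass in either fit were then -0.52 for *Nr0b2*, -0.66 for *Slc51b* and -0.67 for *Slc10a2*. The split depends on the scale: with library size alone in place of TMM, 3730 genes were higher and 1425 lower, against 2632 and 2274. The median log2 fold change was -0.68 over the 5 genes (-0.52 without wild-type mouse 1) and 0.02 over all tested genes. The libraries of the groups did not overlap for 3 of the 5 genes, against 52.4% of all tested genes. *Nr1h4* was the 1 above, against 28.1% of all genes, and *Slc51a* and *Slc51b* the 2 below, against 24.2%. With the further threshold of the study, a log2 fold change of at least 2, 5.3% of all genes passed and 0 of the 5 bile acid handling genes did in edgeR's test. Without this fold threshold, 4 of the 5 had an unadjusted p under 0.05, against 46.6% of all tested genes. DESeq2 called 4 of the 5, against 32.9% of the 15645 genes it gave an adjusted p, and limma-voom called 3, against 37.1% of all genes.

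*Nr1h4* (ENSMUSG00000047638) encodes FXR, the nuclear receptor that senses bile acids, on the minus strand of chromosome 10 (mm9, 88916979 to 88996330). The wild-type mice had 27.3, 25.7 and 29.4 CPM and the double mutant mice 43.4, 42.9 and 38.6 CPM. Every double mutant mouse was above every wild-type mouse, and the groups were narrow. *Nr1h4* rose 1.52-fold, or by 0.60 in log2 (standard error, SE, 0.115; edgeR adjusted p = 0.00458). Leaving out any of the 6 mice kept the call, with log2 fold changes from 0.55 to 0.66, and it was 0.59 without wild-type mouse 1. Its RefSeq promoter is shown because *Nr1h4* had the one rise among these genes. The counts are per gene, so they do not tell which start the transcripts used. This promoter is given as the 250 bases before the RefSeq start, at chr10:89506659-89506908 on the minus strand of GRCm38.p6, 5′ to 3′. Capitals mark matches to the motifs searched, in order a nuclear receptor half-site and a GATA site.
*Nr1h4*: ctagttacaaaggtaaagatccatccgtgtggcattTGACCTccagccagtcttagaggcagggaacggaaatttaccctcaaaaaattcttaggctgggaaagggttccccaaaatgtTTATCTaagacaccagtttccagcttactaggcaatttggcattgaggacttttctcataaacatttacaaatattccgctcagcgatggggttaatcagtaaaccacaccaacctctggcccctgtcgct

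*Nr0b2* (ENSMUSG00000037583; mm9 chromosome 4, 133109291 to 133112451, plus strand) encodes SHP, an orphan receptor without a DNA-binding domain that is induced by FXR and represses other nuclear receptors. Its level was 19.2, 11.1 and 17.5 CPM in the wild-type mice and 11.0, 11.7 and 7.21 CPM in the double mutant mice. Wild-type mouse 2 lay among the double mutant mice, so the groups overlapped. The log2 fold change was -0.68 (SE 0.256; edgeR adjusted p = 0.0686), which did not pass the threshold. DESeq2 placed it inside (-0.70 in log2, adjusted p = 0.0338), and over the other tools, filters, library scalings and left-out mice the adjusted p ran from 0.0309 to 0.203.

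Within a mouse, the level of *Nr1h4* per kilobase was 0.698, 1.13 and 0.827 times that of *Nr0b2* in the wild-type villi and 1.93, 1.80 and 2.63 times in the double mutant villi. Per kilobase, *Nr1h4* RNA thus exceeded *Nr0b2* RNA in every double mutant mouse and in 1 of the 3 wild-type mice. The order of these genes rests on their annotated exon lengths and is less sure than the change of the ratio between the groups. The mean ratio was 0.886 ± 0.224 (SD, n = 3) for wild-type mice and 2.12 ± 0.448 for double mutant mice, without overlap (two-sided exact permutation test of the log2 ratio, p = 0.1, which is as low as 3 against 3 can reach). A ratio within a library does not depend on how the libraries are scaled. *Nr1h4* rose and *Nr0b2* had a lower mean in these same data, and 52.4% of all tested genes did not overlap singly. The share of other gene pairs without overlap was not computed, so the separation cannot be read as specific to this pair. Other ratios per kilobase were also taken. *Slc51b* over *Nr1h4* was 10.8 to 15.2 in wild-type and 2.81 to 5.93 in double mutant mice, without overlap. *Slc51a* over *Slc10a2* was 179 to 252 and 148 to 1538, with overlap.

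**Figure D2:**
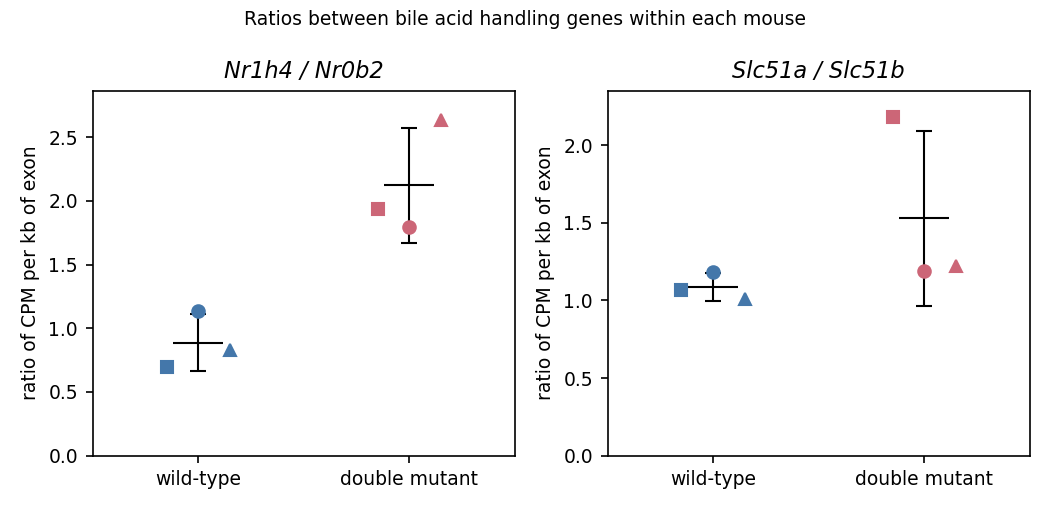
Ratio of CPM per kilobase of exon (vertical axes, linear, from 0) between *Nr1h4* and *Nr0b2* and between *Slc51a* and *Slc51b* in wild-type and double mutant villi, with 1 point per mouse (square, circle and triangle for replicates 1, 2 and 3) and the mean ± SD (n = 3). The first ratio is at most 1.13 in wild-type mice and at least 1.80 in double mutant mice, and the second is set apart mainly by double mutant mouse 1, at 2.18.

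*Slc51a* (ENSMUSG00000035699; mm9 chromosome 16, 32475608 to 32487965, minus strand) encodes the larger subunit of the basolateral exporter. It had 307, 229 and 248 CPM in the wild-type mice and 185, 210 and 191 CPM in the double mutant mice. All double mutant mice were below all wild-type mice, by a small margin between double mutant mouse 2 and wild-type mouse 2. *Slc51a* fell 1.34-fold (log2 fold change -0.42, SE 0.133, edgeR adjusted p = 0.0365). Leaving out any mouse other than wild-type mouse 2, 5 fits of 6, took the call away. The log2 fold change was -0.29 (edgeR adjusted p = 0.084) without wild-type mouse 1. The call was also lost with library size alone, at -0.23 in log2 (edgeR adjusted p = 0.187), and with a replicate block (edgeR adjusted p = 0.0894).

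*Slc51b* (ENSMUSG00000053862; mm9 chromosome 9, 65260560 to 65270580, minus strand) encodes the single-pass subunit that the exporter needs to reach the membrane. The wild-type mice had 88.0, 59.0 and 75.0 CPM and the double mutant mice 25.8, 53.8 and 47.8 CPM. The groups did not overlap, and double mutant mouse 1 was the lowest of all. The log2 fold change was -0.80 (SE 0.276; edgeR adjusted p = 0.0557), just outside the threshold. DESeq2 (adjusted p = 0.0065) and limma-voom (adjusted p = 0.0418) placed it inside, whereas each of the 6 edgeR fits without a mouse left it outside, with log2 fold changes from -1.0 to -0.53. An exon of *Rasl12* overlaps *Slc51b* on the other strand, and the strand setting of the counting is not given in the sources used here, so reads of these genes may not be told apart. *Rasl12* had 6.03, 6.58 and 6.46 CPM in the wild-type mice and 1.31, 5.28 and 4.36 CPM in the double mutant mice, with double mutant mouse 1 the lowest there too.

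The subunits of the exporter were close to equal per kilobase in the wild-type villi, where *Slc51a* was 1.06, 1.18 and 1.01 times *Slc51b*. In the double mutant mice the ratio was 2.18, 1.19 and 1.22. The groups abut without overlap (exact permutation test of the log2 ratio, two-sided p = 0.1, the smallest possible), and only double mutant mouse 1 is clearly apart. The promoters of both subunit genes are shown because the proteins work as a pair. They are the 250 bases before the RefSeq start on GRCm38.p6, at chr16:32487880-32488129 and chr9:65422774-65423023, both on the minus strand and 5′ to 3′, with the nuclear receptor half-site in capitals.
*Slc51a*: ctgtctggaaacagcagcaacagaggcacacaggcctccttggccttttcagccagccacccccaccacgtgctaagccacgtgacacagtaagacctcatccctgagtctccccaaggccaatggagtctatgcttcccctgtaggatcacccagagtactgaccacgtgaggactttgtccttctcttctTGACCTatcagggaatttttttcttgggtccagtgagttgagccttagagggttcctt
*Slc51b*: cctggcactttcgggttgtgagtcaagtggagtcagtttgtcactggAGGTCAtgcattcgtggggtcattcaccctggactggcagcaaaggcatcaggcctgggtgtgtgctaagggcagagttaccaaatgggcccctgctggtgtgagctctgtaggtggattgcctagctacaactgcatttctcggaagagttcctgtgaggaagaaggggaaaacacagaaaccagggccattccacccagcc

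The half-site AGGTCA, the 6 bases that nuclear receptors such as FXR, LRH-1 and RXR bind singly or in pairs, was searched on both strands of the 250 bases before the start. It was found in the promoters of *Nr1h4*, *Slc51a* and *Slc51b*, 3 of the 6 genes with a RefSeq promoter, and in 14.0% of all 32851 promoters. Its first base lies 214 bases before the start in *Nr1h4*, 58 in *Slc51a* and 203 in *Slc51b*. The classical FXR element, this half-site followed by 1 free base and its own reverse complement (an inverted repeat), was in none of the 6 windows and in 0.00609% of all promoters, and the same element without its outermost base on either side, also in none, in 0.0335%. An LRH-1 site, the half-site with TCA directly before it, was in none of the 6 and in 0.387% of all, and a direct repeat of the half-site with 1 free base between the copies in none and in 0.0335%. The GATA letters AGATAA were found in *Nr1h4* and in 9.99% of all promoters. The CDX letters TTTATNG occurred 3 times in *Slc10a2* and were in 9.81% of all promoters. The TCF letters ATCAAAG and the SMAD palindrome GTCTAGAC were in none of the 6 windows and in 3.21% and 0.167% of all. These are matches of letters in a short window and say nothing of binding.

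*Slc10a2* (ENSMUSG00000023073; mm9 chromosome 8, 5085623 to 5105232, minus strand) encodes the apical sodium-dependent bile acid transporter, which takes bile acids up from the lumen. The wild-type mice had 33, 17 and 28 counts and the double mutant mice 27, 3 and 17 counts. In CPM this was 1.37, 0.924 and 1.41 against 1.27, 0.139 and 0.806. Double mutant mouse 2 was far below the others, and the groups overlapped. The log2 fold change was -0.75 (SE 0.636; edgeR adjusted p = 0.388), and it was -0.26 without double mutant mouse 2 and -1.38 without double mutant mouse 1. Over the summed libraries, 78 wild-type counts gave an unscaled 1.17 CPM (exact binomial 95% interval 0.925 to 1.46) and 47 double mutant counts gave 0.785 CPM (0.577 to 1.04), intervals for counting error only. A difference between the groups was not detectable at this depth and spread.

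*Fabp6* (ENSMUSG00000020405; mm9 chromosome 11, 43409551 to 43415042, minus strand) encodes the ileal bile acid binding protein of the cytosol. It had 2, 0 and 1 counts in the wild-type mice and 0, 3 and 3 counts in the double mutant mice. No library exceeded 3 counts, so the gene did not pass the filter and no fold is given. The upper end of the exact binomial 95% interval was at most 0.443 CPM in any library. Relatives were well above the floor in the same libraries: *Fabp1*, the liver-type binding protein of fatty acids, had 2396 ± 586 CPM (SD, n = 3) in wild-type villi, and *Fabp2*, the intestinal type, 2918 ± 1208 CPM.

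Villi are known to consist mostly of enterocytes, and enterocyte markers were lower in the double mutant villi. Of 8 markers (*Alpi*, *Vil1*, *Krt20*, *Fabp2*, *Apoa1*, *Apoa4*, *Sis*, *Anpep*), 6 fell and 2 did not pass the test, against 17.0% of all tested genes lower. Their median log2 fold change was -0.90. Their summed level was 44089 to 51202 CPM in the wild-type and 25684 to 27298 CPM in the double mutant mice. In bulk samples, fewer enterocytes and less RNA per enterocyte cannot be told apart. Expressed per 1000 CPM of these markers, *Nr1h4* was 0.532 to 0.667 in the wild-type and 1.43 to 1.69 in the double mutant mice. *Slc51a* was 4.89 to 5.99 in the wild-type and 7.07 to 7.69 in the double mutant mice, the opposite direction to its fall in CPM. *Slc51b* was 1.26 to 1.72 and 1.01 to 1.97, and *Nr0b2* 0.238 to 0.396 and 0.266 to 0.429, both with overlap. With the markers as the scale in edgeR, an alternative chosen after seeing the data that shifts the median of all genes from 0.02 to 0.85, the log2 fold change was 1.42 for *Nr1h4* (edgeR adjusted p = 5.42e-05) and 0.41 for *Slc51a* (edgeR adjusted p = 0.013). This scale shifts all genes nearly alike, so that relative to the median of all genes *Nr1h4* was at 0.58 with TMM and with the markers, and *Slc51a* at -0.44 with both.

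Markers of some other cell types also differed between the groups. Over all tested genes, 36.8% were called, 19.7% higher and 17.0% lower, so that 2 of 5 or 2 of 6 is close to the share called. Stem cell markers summed to 27.5 to 105 CPM in the wild-type and 135 to 188 CPM in the double mutant mice, with 2 of 5 higher, and leukocyte markers to 68.9 to 115 and 50.6 to 87.2 CPM, with 2 of 6 lower. Tuft markers summed to 82.5 to 111 and 11.9 to 13.4 CPM, with 4 of 4 tested lower, and enteroendocrine markers to 235 to 321 and 96.9 to 107 CPM, with 6 of 7 lower. Paneth markers summed to 142 to 235 CPM in the double mutant mice, with 0 of 5 passing the test, and 1 of 7 goblet markers was higher. Without wild-type mouse 1, 1 Paneth marker was higher and 1 lower, 1 goblet marker higher and 4 lower, 3 stem cell markers higher, 4 leukocyte markers lower and 7 of 7 enteroendocrine markers lower, while the counts of the enterocyte and tuft lists stayed at 6 and 4 lower. Mesenchymal, endothelial and pancreatic acinar markers summed to at most 10.3 CPM per list in every library, and the 1 erythrocyte marker in the table had at most 0.234 CPM. Liver markers summed to at most 2.13 CPM except in double mutant mouse 2, with 12.5 CPM, of which 9.55 CPM was *Alb*. Of the 2 liver markers tested, *Ttr* was higher, with 0.541, 0.109 and 0.656 CPM in the wild-type and 1.17, 1.95 and 1.38 CPM in the double mutant mice (edgeR adjusted p = 0.0403), a call kept in 2 of the 6 fits without a mouse. The part of these cell types in the results on bile acid genes was not tested.

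**Figure D3:**
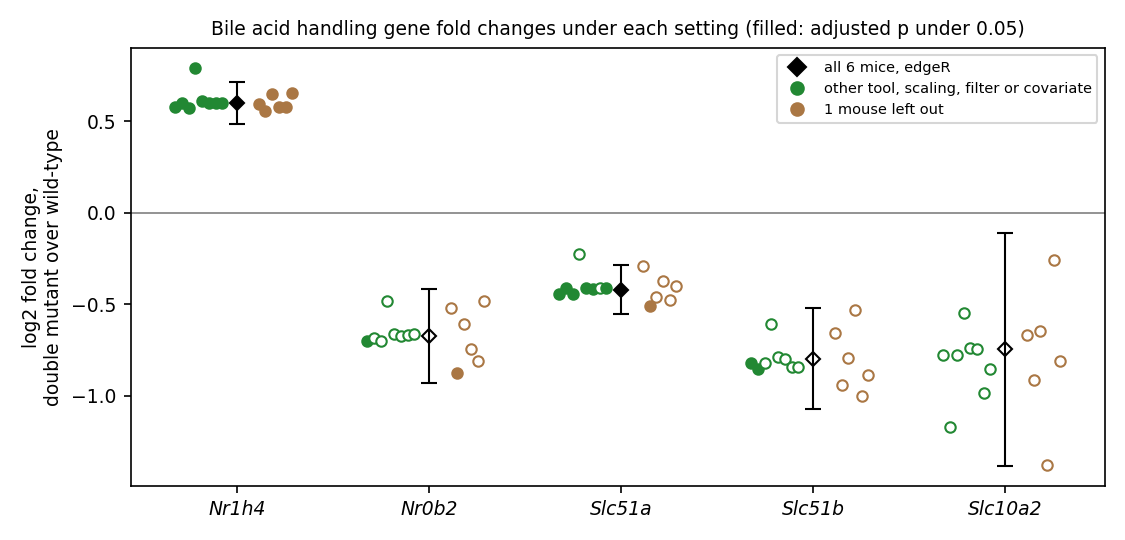
Log2 fold change of double mutant over wild-type villi (vertical axis) for the 5 tested bile acid handling genes, with all 6 mice and edgeR (diamond, bar: standard error), under other tools, library scalings, filters and covariates (green circles) and with 1 mouse left out (brown circles). Filled symbols have an adjusted p under 0.05, as all have for *Nr1h4*, 6 green and 1 brown for *Slc51a*, 1 green and 1 brown for *Nr0b2*, 2 green for *Slc51b* and 0 for *Slc10a2*.

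Of 9 genes for other transporters of bile acids and organic anions, 8 were in the table and 7 tested, of which 2 were higher and 3 lower (median log2 fold change -0.74), or 2 and 4 without wild-type mouse 1, against 19.7% of all tested genes higher and 17.0% lower. *Abcc2*, an apical pump for conjugated organic anions, had 682, 857 and 735 CPM in the wild-type and 422, 231 and 388 CPM in the double mutant mice, so that the groups stood well apart (log2 fold change -1.13, SE 0.219, edgeR adjusted p = 0.00527). *Abcc3*, the basolateral pump of this family, fell from 296 ± 33.4 to 169 ± 12.6 CPM (SD, n = 3 each; -0.81 in log2, edgeR adjusted p = 0.00152), and the apical *Abcg2* fell from 182 ± 40.6 to 105 ± 7.55 CPM (edgeR adjusted p = 0.00589). In contrast, *Slco2b1*, an uptake carrier of organic anions, rose from 25.2, 27.7 and 24.3 CPM to 70.9, 57.1 and 53.3 CPM (1.23 in log2, SE 0.14, edgeR adjusted p = 0.000465). *Abcc4*, another basolateral export pump, had 7, 9 and 8 counts in the wild-type and 26, 39 and 22 counts in the double mutant mice (log2 fold change 1.78, edgeR adjusted p = 0.0144), a call lost without double mutant mouse 2 only. The hepatic uptake carrier gene *Slc10a1* had 1.66 ± 0.331 and 1.31 ± 0.614 CPM (edgeR adjusted p = 0.567), and *Abcb11*, the hepatic bile salt export pump gene, did not pass the filter.

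Among 13 genes for bile acid receptors, their partners and the receptor of FGF15, 11 were tested, 2 of them higher and 4 lower, or 3 and 4 without wild-type mouse 1, beside the same 19.7% and 17.0% of all genes. *Rxra*, the dimer partner of FXR, fell from 214 ± 4.58 to 153 ± 16.2 CPM (-0.48 in log2, edgeR adjusted p = 0.0102), a call lost when the libraries were scaled by size alone. *Nr5a2*, encoding LRH-1, which acts with SHP on shared promoters, rose from 7.66, 9.18 and 8.89 CPM to 19.1, 14.0 and 14.7 CPM (0.90 in log2, SE 0.178, edgeR adjusted p = 0.0053). *Vdr*, the vitamin D receptor, which also binds the secondary bile acid lithocholic acid, fell from 566 ± 60.9 to 362 ± 41.6 CPM (-0.64 in log2, edgeR adjusted p = 0.00589). *Hnf4a* fell 1.31-fold and *Hnf4g* 1.64-fold, and the call of *Hnf4a* held in 2 of the 6 fits without a mouse. Both calls were lost with library size alone. *Nr1i2*, the xenobiotic receptor PXR, had 123 ± 2.66 and 132 ± 15.8 CPM (edgeR adjusted p = 0.487).

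*Fgfr4*, the receptor through which FGF15 acts on the liver, had the largest log2 fold change of this list, from 6, 2 and 10 counts in the wild-type to 42, 90 and 103 counts in the double mutant mice (log2 fold change 3.64, SE 0.567, edgeR adjusted p = 0.00182). Its level was low in both groups, at 0.288 ± 0.201 and 3.67 ± 1.52 CPM (SD, n = 3 mice). The part of liver RNA in this difference was not tested. The coreceptor gene *Klb* had at most 3 counts in any library, and *Gpbar1*, the membrane receptor of bile acids, 0 in all wild-type mice and at most 3 counts in a double mutant mouse.

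Of 7 other genes that FXR is known to activate, 6 were tested, with 1 higher, 2 lower and 3 that did not pass, against 36.8% of all tested genes called. Their median log2 fold change was -0.35, or -0.12 without wild-type mouse 1. *Osgin1* had 149, 112 and 127 CPM in the wild-type and 38.5, 45.8 and 37.4 CPM in the double mutant mice, a wide separation (log2 fold change -1.67, SE 0.143, edgeR adjusted p = 0.00015). *Insig2*, which restrains sterol synthesis, fell from 49.4 ± 3.77 to 32.5 ± 2.08 CPM (-0.61 in log2, edgeR adjusted p = 0.00457), while *Sdc1*, a cell surface proteoglycan gene, rose from 63.2 ± 5.02 to 96.4 ± 10.6 CPM (0.61 in log2, edgeR adjusted p = 0.0057). Each of these genes has other regulators as well.

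**Figure D4:**
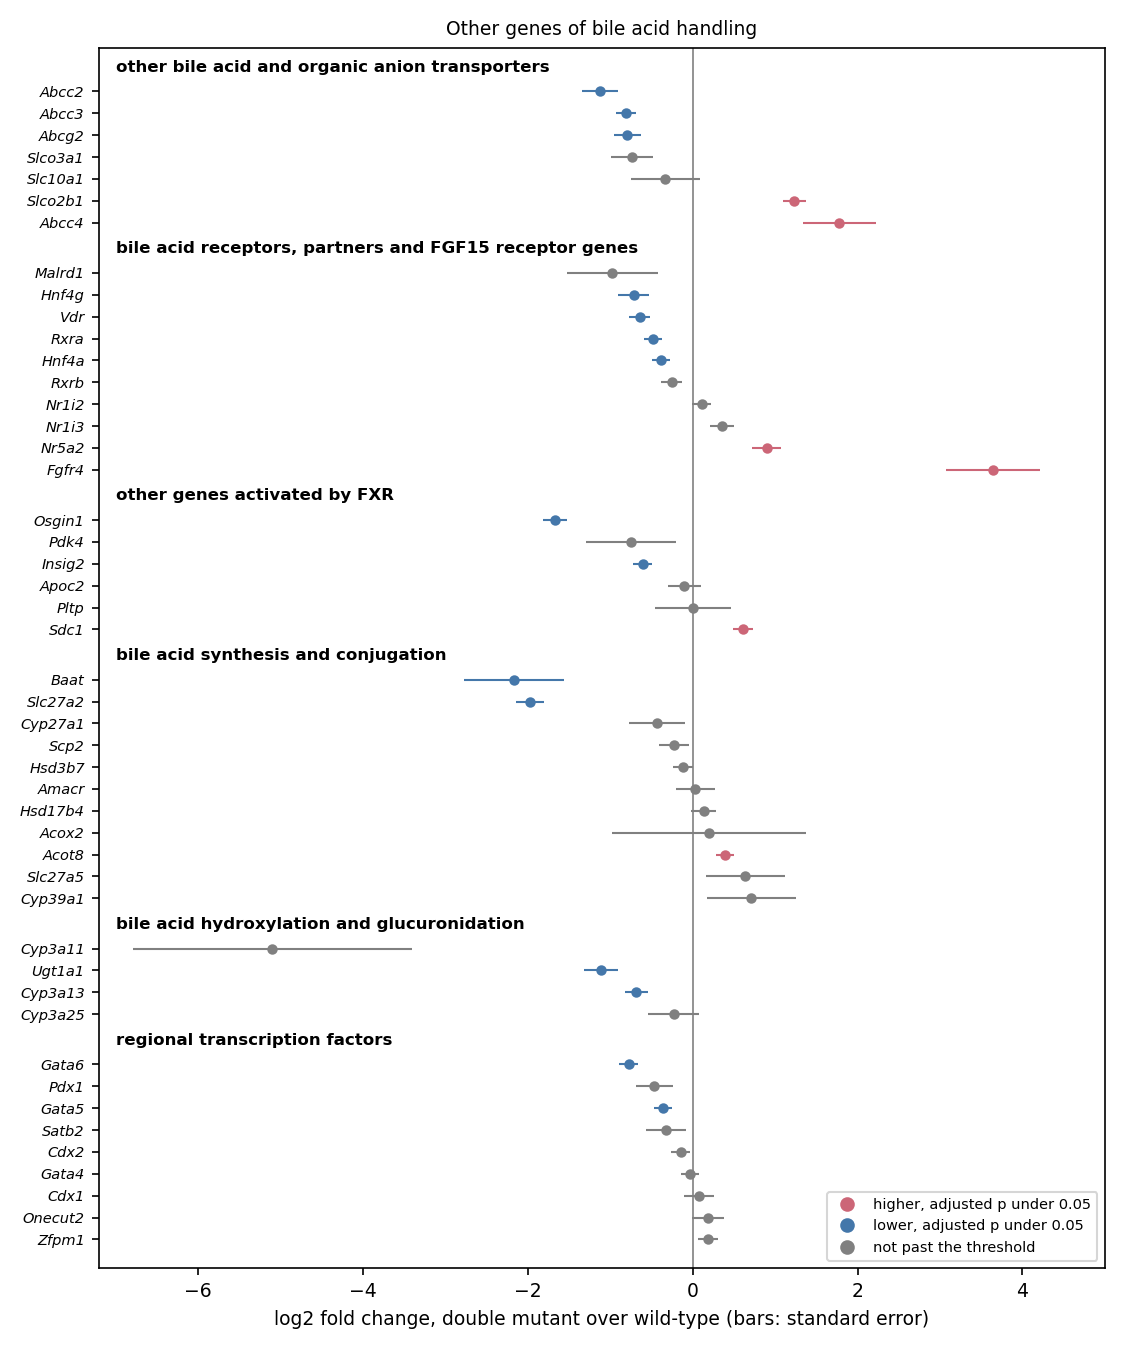
Log2 fold change of double mutant over wild-type villi (horizontal axis, bars: standard error) for tested genes of 6 lists around bile acid handling, with 1 gene left out, coloured by direction where the adjusted p is under 0.05 in edgeR's test. *Fgfr4* (3.64) lies farthest to the right, and *Cyp3a11* (-5.10), which did not pass the test, farthest to the left.

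The enzymes of bile acid synthesis are mainly hepatic, and of 15 such genes 14 were in the table and 11 tested, with 1 higher, 2 lower and a median log2 fold change of 0.03, or 1 higher, 1 lower and 0.19 without wild-type mouse 1. This is 3 of 11 called with all mice, against 36.8% of all tested genes. *Cyp7a1*, the rate-limiting enzyme of the classical pathway, had 0 counts in 5 libraries and 5 counts in double mutant mouse 2, the library with liver markers. *Slc27a2*, which activates fatty acids and bile acid precursors with coenzyme A, had 303, 292 and 211 CPM in the wild-type and 78.3, 65.2 and 61.6 CPM in the double mutant mice (log2 fold change -1.97, SE 0.167, edgeR adjusted p = 0.000145). *Baat*, which conjugates bile acids to taurine or glycine, was low, with 65, 37 and 12 counts against 6, 7 and 12 counts (log2 fold change -2.17, edgeR adjusted p = 0.0233). Its call was kept in 2 of the 6 fits without a mouse, those without wild-type mouse 3 and without double mutant mouse 3. *Acot8*, a peroxisomal thioesterase, rose from 36.0 ± 1.27 to 47.3 ± 3.64 CPM (0.39 in log2, edgeR adjusted p = 0.0242), a call kept in 3 of those 6 fits. Of 4 genes for hydroxylation and glucuronidation, *Ugt1a1* (log2 fold change -1.11, edgeR adjusted p = 0.00371) and *Cyp3a13* (log2 fold change -0.68, edgeR adjusted p = 0.00699) were lower. That is 2 of 4, against 17.0% of all tested genes lower. *Cyp3a11* had 2603, 705 and 705 CPM against 10.4, 3.38 and 103 CPM, so that the groups were far apart but uneven within (log2 fold change -5.10, SE 1.69, edgeR adjusted p = 0.0798), and it passed without double mutant mouse 3 and with DESeq2 and limma-voom. Genes of the *Cyp3a* and *Ugt1a* families share near-identical or common exons, so the split of their reads is uncertain.

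Of the 9 tested transcription factors that set the position along the gut, *Gata5* and *Gata6* were lower and 7 did not pass the test. Over all tested genes 17.0% were lower, so that 2 of 9 is close to the share among all genes. *Gata4* had 207, 221 and 236 CPM in the wild-type and 212, 239 and 199 CPM in the double mutant mice, with overlapping groups (log2 fold change -0.03, SE 0.113, edgeR adjusted p = 0.854). *Cdx2* had 158 ± 18.6 and 143 ± 8.21 CPM (edgeR adjusted p = 0.362), and *Pdx1*, a duodenal factor, 63.3 ± 20.3 and 45.8 ± 2.23 CPM (edgeR adjusted p = 0.146), but without wild-type mouse 1 *Pdx1* passed, at -0.71 in log2 (edgeR adjusted p = 0.00167). *Gata6* fell from 157 ± 16.2 to 91.7 ± 5.01 CPM (-0.78 in log2, edgeR adjusted p = 0.00146). The call of *Gata5* was kept in 1 of the 6 fits without a mouse, not in that without wild-type mouse 1, and was lost with library size alone. Of the 8 proximal markers, 2 were higher, 1 lower and 5 did not pass, or 2 higher and 3 lower without wild-type mouse 1, when *Pdx1* and the calcium channel gene *Trpv6* (-1.67 in log2, edgeR adjusted p = 0.0256) also passed. The share of proximal markers called with all mice was close to the 36.8% of all tested genes. With all mice, *Lct* (lactase) fell by 2.04 on the log2 scale, while *Cybrd1* and *Slc11a2*, of iron uptake, rose by 3.05 and 1.77. Of 4 distal markers, 3 were lower, or 2 without wild-type mouse 1, against 17.0% of all tested genes lower. *Nts* fell from 15.2 ± 1.27 to 0.405 ± 0.239 CPM (edgeR adjusted p = 7.4e-05), and *Amn* and *Cubn* had log2 fold changes of -1.07 and -2.41. The call of *Amn* was lost without double mutant mouse 1. That of *Cubn* was kept in 2 of the 6 fits without a mouse, and lost without wild-type mouse 1. Enterocyte and enteroendocrine markers were lower as well, and their part in the changes of the distal markers was not tested.

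Likeness of pattern was measured over the 6 libraries as the root mean square difference of log2 CPM after centring each gene, where smaller is more alike. The genes nearest to *Nr1h4* were *Plaa* (0.0328), *Spcs3* (0.0346) and *Elp2* (0.0409), and those nearest to *Slc51a* were *Stx5a* (0.0401), *Snx15* (0.0408) and *Gdpd3* (0.0491). For *Slc51b* they were *Gm9752* (0.156), *Eif4ebp3* (0.163) and *Adam1a* (0.169), and for *Nr0b2* 3 predicted transcripts, *Gm17690*, *Gm11772* and *Gm12589*, at 0.139 to 0.156. The nearest to *Slc10a2* was *Gm13364* (0.323), followed by *Col25a1* (0.331) and a transcript outside the annotation. RefSeq lists *Gm13364* and *Gm13318* as older names of *Malrd1* (Diet1), a gene known to affect FGF15 output. *Gm13364* had 10.3, 11.3 and 9.90 CPM in the wild-type and 9.75, 1.62 and 4.65 CPM in the double mutant mice, so that double mutant mouse 2 was lowest, as for *Slc10a2* (log2 fold change -0.97, edgeR adjusted p = 0.209). *Gm13318* had 47.6, 31.7 and 31.1 CPM against 27.9, 25.8 and 34.9 CPM, with overlap (edgeR adjusted p = 0.236).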

How the data were processed

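RNA of duodenal villus epithelium was sequenced in 6 libraries, 1 per mouse. The deposited values are raw counts per gene without normalization, which the authors obtained with featureCounts from HISAT2 alignments to mm9, per the labels and the methods of the study. Symbols and positions come from the GENCODE annotation of mm9, in which 20032 identifiers were found; 336 features lie outside it. Totals, 19678507 to 26337318 counts, set a floor of 3 counts per library.

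In edgeR 4.0.16 (R 4.3.3), the 13346 genes kept by filterByExpr entered a robust quasi-likelihood fit (glmQLFit, glmQLFTest) with TMM factors, with Benjamini-Hochberg adjustment over all of them. The standard error is the log2 fold change over the square root of F. DESeq2 1.42.0, limma 3.58.1 (voom), RLE factors, library size alone, other filters, a replicate block, sex and each mouse left out were alternatives. CPM per kb uses the union of annotated exons. Log2 CPM for likeness has a prior count of 2. Ratios were tested by exact permutation, where 3 against 3 allow no p under 0.1.

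The genes of interest and the lists were chosen with earlier results of these data known. Named genes are all bile acid handling genes, the largest called change in each direction per list, genes with a known regulatory tie to them and the 3 nearest by pattern; the markers of iron uptake, *Rasl12*, *Gm13318* and *Alb* were added after their values were seen. The series design calls the 3 libraries of a group biological replicates, taken here as separate mice. Values of 1 listed gene, which its list is still counted with, are not reported here.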

Additional observations from a re-analysis of the deposited data

How the results depend on the processing

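The rise of *Nr1h4* kept its direction and its side of the threshold under all 14 other tools, library scalings, filters, covariates and left-out mice, with log2 fold changes from 0.55 to 0.79. *Slc10a2* stayed negative and outside the threshold in those 14, from -1.38 to -0.26. *Slc51a* lost its call with library size alone (-0.23, edgeR adjusted p = 0.187), a scaling that moves the median of all genes to 0.22; relative to that median it was -0.44, as with TMM. *Nr0b2* passed with DESeq2 (-0.70) and *Slc51b* with DESeq2 (-0.82) and limma-voom (-0.85). Leaving out 1 mouse moved the value from -0.51 to -0.29 for *Slc51a*, from -0.88 to -0.48 for *Nr0b2* and from -1.0 to -0.53 for *Slc51b*. *Nr0b2* passed only without wild-type mouse 2.

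Of the bile acid handling genes, 2 were called in edgeR (1 higher, 1 lower), 4 in DESeq2 (3 lower), 3 in limma-voom (2 lower), and 1 with library size alone (0 lower). With a mouse left out, 1 to 3 were called, 1 higher and 0 to 2 lower. At a log2 fold change of at least 2, 0 were called, 0 higher and 0 lower, and of all genes 708 were, 406 higher and 302 lower. Library size alone gave 1425 lower genes, against 2274. With a mouse left out, 3442 to 5144 genes were called.

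The deviations of same-numbered mice from their group means correlated at 0.0224, -0.109 and 0.0123, and those of differently numbered mice at -0.102 to 0.0935. With 3 mice per group, these values cannot decide whether same-numbered mice were matched. With the replicate block, 3844 genes were called and 1 bile acid handling gene (0 lower), since *Slc51a* (-0.41) had an adjusted p of 0.0894 (edgeR). Of the other genes named as called, *Acot8*, *Apoa1*, *Baat*, *Cubn*, *Fabp1*, *Gata5*, *Hnf4a*, *Slc10a5* and *Ttr* also lost their calls with this block. Sex as a covariate changed no call among the 5 tested bile acid handling genes, and ended those of *Cubn*, *Fabp1* and *Ttr*. Library size alone ended those of *Apoa1*, *Cubn*, *Gata5*, *Hnf4a*, *Hnf4g*, *Rxra* and *Slc10a5*, no filter on low counts those of *Cubn* and *Slc10a5*, and limma-voom that of *Baat*.

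Scaled to the enterocyte markers, an alternative added after seeing the data, 9485 genes were called, 9005 higher and 480 lower. Of the bile acid handling genes 2 were higher and 0 lower, with *Slc51a* at 0.41, *Slc51b* at 0.021, *Nr0b2* at 0.16 and *Slc10a2* at 0.089. Depth limits *Slc10a2* and *Fabp6*.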

Other observations

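The families of the uptake carrier and of the cytosolic binding protein were read for comparison. Of 6 further SLC10 genes, 5 were in the table and 4 tested. *Slc10a5* had 57.3, 63.5 and 37.8 CPM in the wild-type and 37.9, 17.0 and 26.7 CPM in the double mutant mice, with overlapping groups (-0.96 in log2, SE 0.31, edgeR adjusted p = 0.0461), a call kept in 2 of the 6 fits without a mouse. *Slc10a3* (14.6 ± 3.23 and 11.8 ± 0.903 CPM, SD, n = 3 mice) and *Slc10a7* (7.73 ± 1.53 and 6.68 ± 0.67 CPM) did not pass the test with all mice. Without wild-type mouse 1, *Slc10a3* passed, at -0.48 in log2 (edgeR adjusted p = 0.037), and *Slc10a5* did not (edgeR adjusted p = 0.119).

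Of 5 further fatty acid binding protein genes, 3 were tested. *Fabp1* had 3069, 2005 and 2114 CPM in the wild-type and 2955, 5477 and 4281 CPM in the double mutant mice (log2 fold change 0.82, SE 0.25, edgeR adjusted p = 0.0331). The groups overlapped through wild-type mouse 1 and double mutant mouse 1, and the call was kept in 2 of the 6 fits without a mouse. *Fabp2* had 2918 ± 1208 and 2735 ± 388 CPM (edgeR adjusted p = 0.814) and *Fabp5* 1.73 ± 0.488 and 1.66 ± 0.893 CPM (edgeR adjusted p = 0.938).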
